A study of Mus musculus with 20 samples.

Results

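The Gimap genes (GTPases of immunity-associated proteins) were described in 10 sorted populations of mouse haematopoietic cells. The 7 members were Gimap3, Gimap4, Gimap5, Gimap6, Gimap7, Gimap8 and Gimap9, found as the probe sets that the platform annotation gives to 1 of these genes alone. They were selected on measured values of these arrays. There were 10 such probe sets among 45101 on the array, and for each gene the probe set with the highest mean over all 20 arrays was kept. The 7 genes belong to 18193 genes with a probe set of 1 symbol, and all 7 were among the 14063 genes bright enough to be tested. The family was picked for study because several members stood far higher in lymphoid than in myeloid populations of these same arrays. That contrast, and the height of the mature over the stem-enriched cells, are therefore given as descriptions, and tests were kept to other comparisons.

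All cells came from mice of the C57BL/6 background, with 2 biological replicates per population, and no animal age, treatment or tissue is named. The populations are called KSL (the usual name for a fraction rich in haematopoietic stem and early progenitor cells), LinNeg (lineage marker(-) cells), B (B220(+) B lymphocytes), CD4T (CD4(+) T lymphocytes), CD8T (CD8(+) T lymphocytes), NK (NK1.1+ NK cells), NKT (CD3ε(+)NK1.1(+) NKT cells), Erythroblast (Ter119(+) erythroblasts), Neutrophil (Gr-1(+) neutrophils) and Monocyte (Mac-1(+) monocytes/macrophages). B, CD4T, CD8T, NK and NKT are the 5 lymphoid populations. T stands for the equal-weight mean of CD4T and CD8T. Whether the replicates came from separate animals is not stated, so the errors measure the spread between these arrays, which may be technical.

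Gimap proteins are small GTP-binding proteins of the AIG1 type, encoded side by side on mouse chromosome 6 and known mainly from lymphocytes. Some are anchored in the membranes of organelles and others are free in the cytosol, and several have been tied to the survival and long life of resting T cells. Loss of Gimap5 in mice and rats causes a shortage of T cells. In the RefSeq gene order the cluster runs Gimap8, Gimap9, Gimap4, Gimap6, Gimap7, Gimap1, Gimap5, Gimap3. Gimap1 has a probe set of its own and lies inside the cluster, but is not one of the 7 members and is treated as a neighbour.

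The sequences 250 bases upstream of the start site are shown for 4 members that split in opposite directions between KSL and LinNeg, as described further on: Gimap3 and Gimap4 were higher in LinNeg, Gimap5 and Gimap6 in KSL. They are from RefSeq on GRCm38.p6, at chr6:48770852-48771101 (minus strand), chr6:48684328-48684577 (plus), chr6:48745947-48746196 (plus) and chr6:48708245-48708494 (minus), written 5′ to 3′. Capitals mark the letters TGTGGT (the core bound by RUNX factors) and AGGAAG (a core bound by ETS factors) on either strand.
Gimap3: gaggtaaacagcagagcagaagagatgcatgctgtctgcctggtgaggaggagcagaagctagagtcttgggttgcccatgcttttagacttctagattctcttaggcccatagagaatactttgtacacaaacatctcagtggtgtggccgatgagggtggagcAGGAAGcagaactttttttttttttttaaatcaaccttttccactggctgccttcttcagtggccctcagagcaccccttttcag
Gimap4: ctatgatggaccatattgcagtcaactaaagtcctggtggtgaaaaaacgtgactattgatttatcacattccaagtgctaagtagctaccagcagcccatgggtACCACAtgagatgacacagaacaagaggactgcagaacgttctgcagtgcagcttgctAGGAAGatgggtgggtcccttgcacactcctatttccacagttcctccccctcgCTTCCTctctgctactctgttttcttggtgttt
Gimap5: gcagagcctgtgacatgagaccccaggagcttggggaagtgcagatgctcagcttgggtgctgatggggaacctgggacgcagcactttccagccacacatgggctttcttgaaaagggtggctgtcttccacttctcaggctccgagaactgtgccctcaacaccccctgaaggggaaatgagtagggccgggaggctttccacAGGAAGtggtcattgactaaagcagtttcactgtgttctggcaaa
Gimap6: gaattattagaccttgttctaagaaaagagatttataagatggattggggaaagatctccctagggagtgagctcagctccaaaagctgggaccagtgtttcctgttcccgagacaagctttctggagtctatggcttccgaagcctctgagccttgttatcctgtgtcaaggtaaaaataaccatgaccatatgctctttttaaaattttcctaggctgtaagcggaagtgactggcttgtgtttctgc

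All 7 members had an entry in the table of promoters, 8 windows in all. TGTGGT occurred upstream of 2 of the 7 members, Gimap4 and Gimap7, and in 14.0% of the 32851 windows of all genes. AGGAAG occurred upstream of 6 of 7, all but Gimap6, and in 29.5% of all windows. CACCC, the core of KLF sites, was found upstream of 5 of 7 members and in 52.0% of all windows. The letters AGATAA, a core of erythroid and T cell factors of the Gata family, stood in 9.99% of all windows and upstream of 0 members. The same count of 0 was found for CTTTGA, bound by Tcf7 and Lef1 (13.8% of all windows), and for the NF-kappa-B motif (0.14%). Both strands were searched and matches in the printed windows did not overlap each other. Among the 4 printed windows, those of Gimap3, Gimap4 and Gimap5 held AGGAAG and CACCC, that of Gimap4 also held TGTGGT, and that of Gimap6 held none of the motifs.

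Values are probe set intensities on the scale of the deposited table, in which every array has a trimmed mean of 100. They are compared for one gene across populations, never between genes, because each probe set binds with its own efficiency. Differences are on the log2(intensity + 6.75) scale, with a constant of 6.75, the lower quartile of the values, and are given with the standard error of a limma fit over all 20 arrays. A gene was called when its Benjamini-Hochberg adjusted p was under 0.05 and its difference was at least 1 on that scale. The Pearson r between the 2 arrays of a population, across the genes tested, ran from 0.954 to 0.972. Of the 9 genes of the monocyte and macrophage list with a probe set, 9 were above 100 in both NK arrays, and their summed intensity was 21462 and 18484 there against 8432 and 14422 in Monocyte. The neutrophil list was also high in NK, with sums of 18217 and 14008, although 11 of 11 genes of the NK cell list were above 100 as well. Results on NK therefore rest on arrays that carry RNA of myeloid genes. These are bulk samples, so fewer cells of a type and less RNA per cell cannot be told apart.

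**Figure D1:**
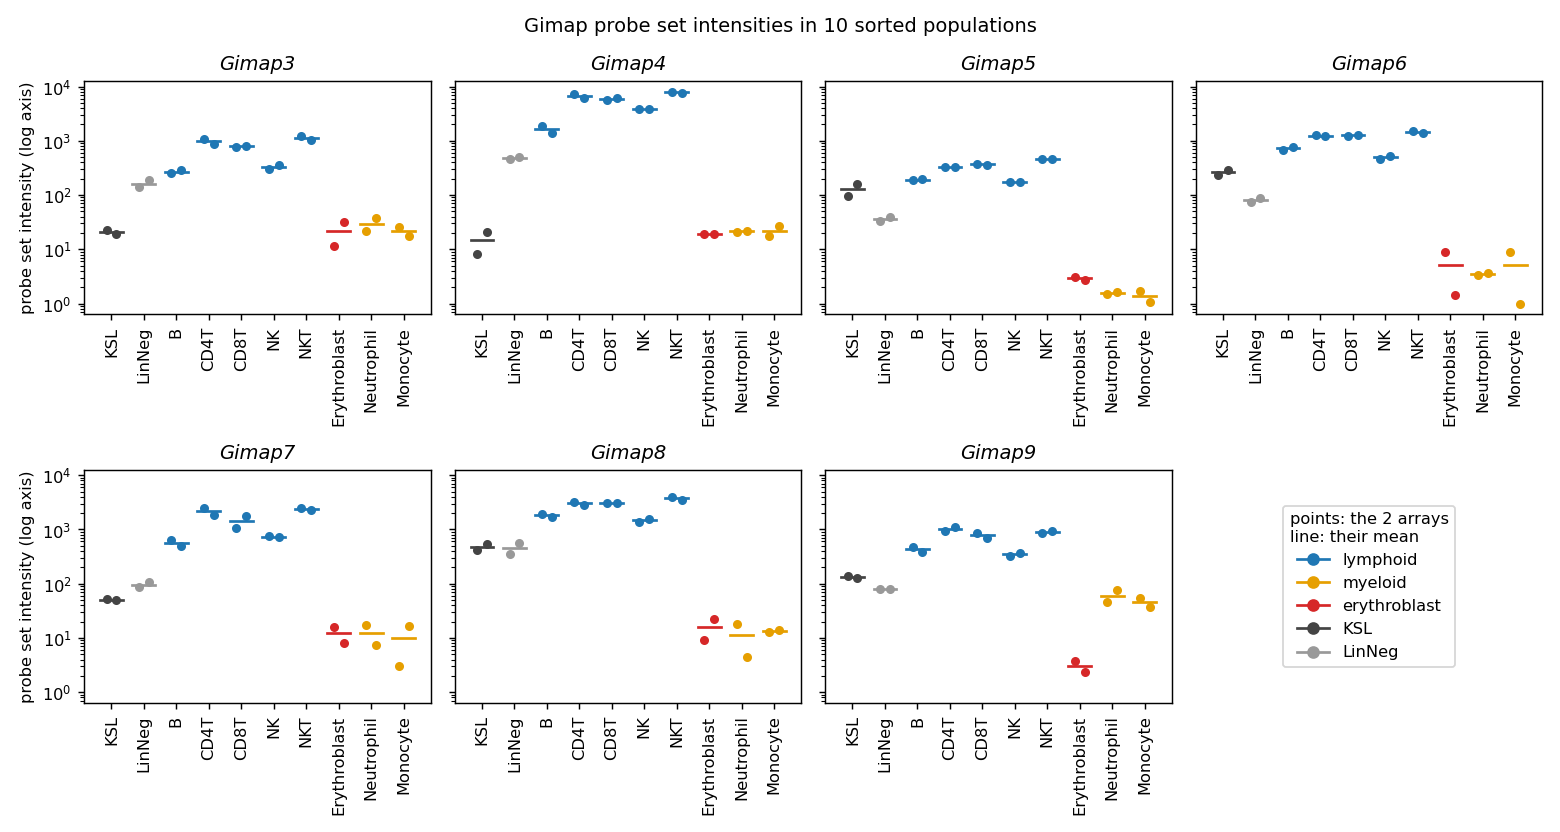
Probe set intensity (log axis) of the 7 Gimap genes in each of 10 populations, with points for the 2 arrays and a line at their mean. In every panel the 10 lymphoid arrays lie above the 10 others, while KSL and LinNeg change places from gene to gene.

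In all 7 members every one of the 10 lymphoid arrays lay above every one of the 10 other arrays, a pattern shared by 1.47% of the genes tested. Since the members were picked for it, nothing is read from this count. The same holds against the 4 Neutrophil and Monocyte arrays alone (7 of 7, and 13.7% of all genes). Height in lymphoid cells was the ground of the choice, so it is no check of the label of lymphocyte GTPases. Signal was not limited to these cells. On the kept probe sets, 4 of the members (Gimap5, Gimap6, Gimap8 and Gimap9) also lay above 90 in both KSL arrays. On the second Gimap6 probe set KSL (181 and 68.1) overlapped NK (134 and 251). Erythroblast, Neutrophil and Monocyte had the lowest means of 5 members, while KSL had the lowest of all for Gimap3 and Gimap4.

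Gimap5, a membrane-anchored member found on lysosomes, had intensities of 463 and 455 in NKT, 380 and 361 in CD8T, and 328 and 328 in CD4T. It stood at 186 and 194 in B, and at 173 and 176 in NK. KSL followed with 96.2 and 158, LinNeg with 33.7 and 39.4, and the Erythroblast, Neutrophil and Monocyte arrays lay between 1.05 and 3.13. Each of these neighbours in the order was separate in its arrays from the next, except Neutrophil and Monocyte, the lowest. The highest KSL array came close to the lowest NK array.

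Gimap3, the closest relative of Gimap5 and likewise anchored in a membrane, had another order below the T cells. Its arrays read 1201 and 1024 in NKT, 1089.5 and 866 in CD4T, 773 and 797 in CD8T, 303 and 365 in NK, and 254 and 284 in B. LinNeg came next, at 139 and 187. KSL, at 22.5 and 19.3, was the lowest population by its mean and overlapped with Erythroblast, Monocyte and Neutrophil. NKT and CD4T overlapped at the top, and the remaining lymphoid neighbours did not. Gimap3 and Gimap5 are related genes, and sharing of signal between their probe sets was not tested.

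Gimap4, which acts in T cell apoptosis and cytokine release, was at 8048 and 7618 in NKT, 7177 and 6152 in CD4T, 5655 and 6138 in CD8T, 3871 and 3892 in NK, and 1861 and 1385 in B. All 5 lymphoid populations were separate from the next in this order. LinNeg lay at 461 and 503. In KSL the arrays read 8.35 and 20.7, on either side of Erythroblast (19.0 and 19.2), and the highest myeloid array was at 26.8. The kept probe set is of the _s_at kind, which can bind related transcripts. The other Gimap4 probe set gave the same order of the top populations and 5.06 and 7.22 in KSL against 200.1 and 268 in LinNeg, with a Pearson r of 0.996 between the probe sets over the 10 population means.

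Gimap6, which takes part in autophagy through binding to an Atg8-type protein, read 1525 and 1394 in NKT, 1233 and 1290.3 in CD8T, and 1251 and 1246 in CD4T. B followed at 685 and 778, and NK at 471 and 517. KSL, at 237 and 283, was above LinNeg, at 75.1 and 86.7. The CD4T and CD8T arrays overlapped and the other neighbours down to LinNeg were separate. Erythroblast, Neutrophil and Monocyte arrays did not exceed 9.09, so Gimap6 in KSL was far above the dim populations.

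Gimap8, which holds several GTPase domains in a row, was the one member whose arrays overlapped between both immature fractions. It read 412 and 528 in KSL and 351 and 559 in LinNeg, overlapping, which is 12.5% and 12.1% of its NKT mean. Lymphoid arrays ran from 1386 in NK to 3984 in NKT. The 6 arrays of Erythroblast, Neutrophil and Monocyte lay between 4.50 and 22.1.

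For Gimap7, which can speed up the GTPase activity of other family members, lymphoid arrays ran from 495 in B to 2532 in NKT. CD8T was uneven, at 1064 and 1807. LinNeg stood at 85.9 and 107, KSL at 51.5 and 50.3, and the dim populations at 17.4 or less. On the kept probe sets, Gimap9 was the one member whose highest population was not NKT but CD4T. It read 941 and 1113 there against 864 and 928 in NKT. Its arrays read 45.9 and 75.4 in Neutrophil and 54.2 and 36.6 in Monocyte, all above those of Erythroblast, at 3.78 and 2.37.

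As a share of the highest population mean of the same gene, the KSL level was 27.7% for Gimap5, 17.8% for Gimap6, 13.1% for Gimap9 and 12.5% for Gimap8. The same share was 2.10% for Gimap7, 1.88% for Gimap3 and 0.186% for Gimap4. In LinNeg the order changed, from 14.6% for Gimap3 down to 3.97% for Gimap7. The order of KSL and LinNeg thus differed from member to member. Pearson r between members over the 10 population means ran from 0.848 to 0.998 in 21 pairs, and the lowest was that of Gimap4 with Gimap5. Over the 5 lymphoid populations r ran from 0.679, for Gimap4 with Gimap6, to 0.990, with a median of 0.922. Over the 5 populations that are not lymphoid r ran from 0.232, for Gimap4 with Gimap9, to 0.998, with a median of 0.650. These are descriptions over population means that share the same arrays.

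**Figure D2:**
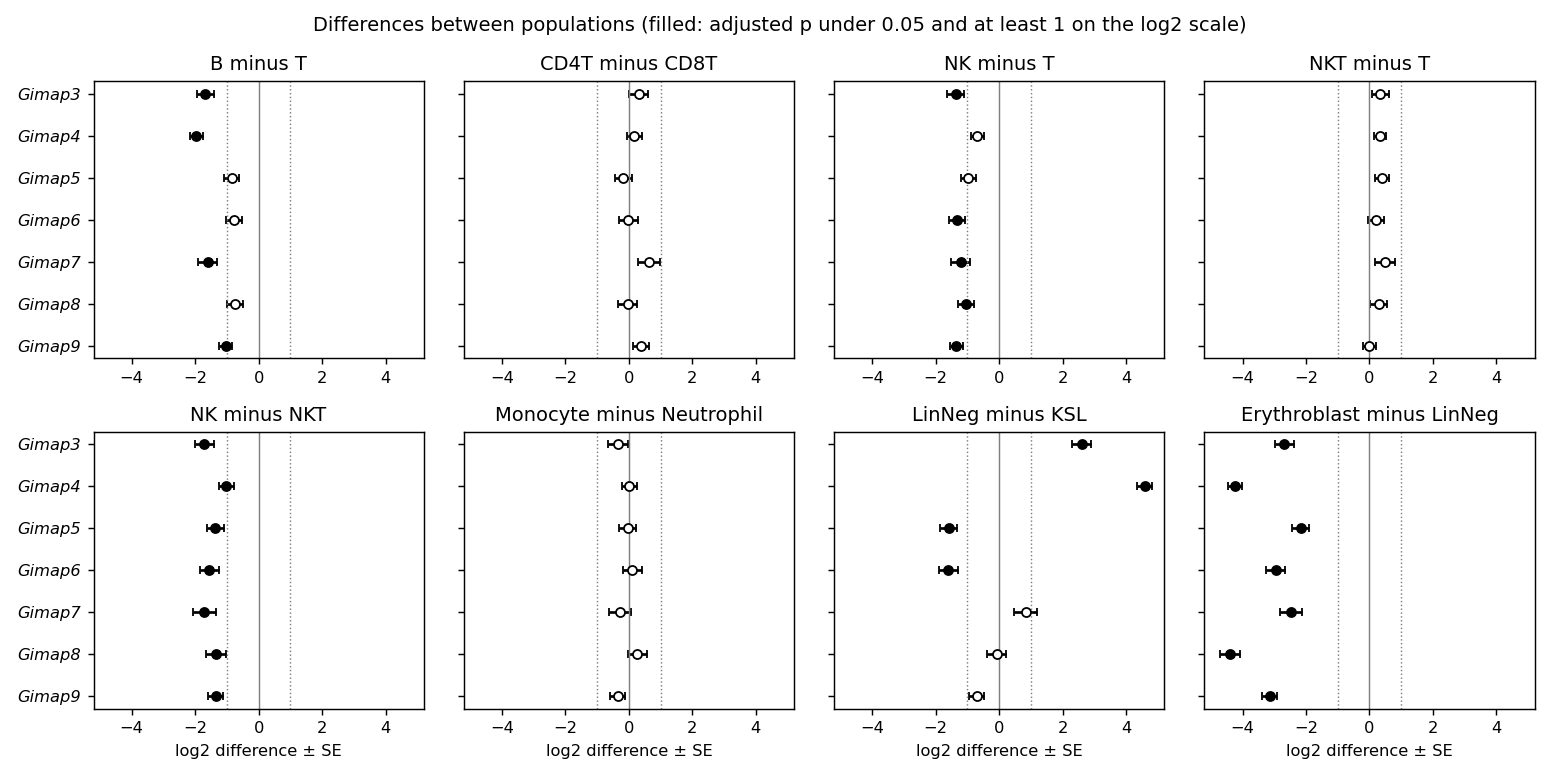
Log2 difference with its standard error for the 7 Gimap genes in the 8 comparisons tested, filled where the adjusted p was under 0.05 and the difference at least 1 (dotted lines). All 7 were below 0 in B minus T, NK minus T, NK minus NKT and Erythroblast minus LinNeg, and the members lie on both sides of 0 in LinNeg minus KSL.

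B cells were compared with T cells to ask how evenly the family is expressed among lymphocytes. Gimap4, Gimap3, Gimap7 and Gimap9 fell in B, by 1.96, 1.68, 1.60 and 1.03 on the log2 scale. For Gimap4 the mean intensity was 1623 ± 337 (SD, n = 2) in B and 6280.5 in T (log2 difference -1.96 ± 0.20, limma adjusted p 2.8e-07). Gimap3 was at 269 in B and 881 in T (adjusted p 6.9e-05), and Gimap7 at 569 and 1807 (adjusted p 0.00060). In all 7 members every T array lay above both B arrays, as in 19.7% of all genes tested. On the second probe sets, Gimap6 and Gimap7 overlapped between B and T, with differences of -0.37 and -1.20. That of Gimap4 did not overlap (-1.81). The differences of Gimap5, Gimap6 and Gimap8 were -0.85 ± 0.23, -0.78 ± 0.26 and -0.74 ± 0.26, short of a difference of 1, and that of Gimap8 also had an adjusted p of 0.057. So 4 of 7 members were called lower in B and 0 higher, where 13.0% of all genes were called, 7.08% lower and 5.91% higher. The median was -1.03 for the members and -0.06 for all genes tested. With the treat test, which asks whether a difference exceeds 1, 1 of 7 was called (Gimap4), and 5.28% of all genes. The difference of Gimap9 was less than 1 after array median centring (-0.95) and without B replicate 2 (-0.88), CD4T replicate 2 (-0.97) or CD8T replicate 1 (-0.95).

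Marker genes also differed between these arrays. The summed intensity of the 11 T cell genes was 103 and 128 in B and at least 13585 in the CD4T and CD8T arrays, and 11 of 11 B cell genes were called higher in B. The monocyte and macrophage list stood at 3429 and 3295 in B and from 262 to 1171 in CD4T and CD8T, and the plasma cell list at 4011 and 3573 in B against 700 to 1306. The part of those cells in the differences was not tested.

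The pair of T cell populations was set against each other. No member was called in the limma fit (0 of 7, and 0 of 7 at an unadjusted p under 0.05), where 3.21% of all genes were called in either direction, 2.13% higher and 1.07% lower. The differences, CD4T minus CD8T, ran from -0.17 for Gimap5 to 0.63 for Gimap7. For Gimap7 the 95% interval ran from -0.11 to 1.37. In Gimap6 and Gimap8 the arrays of both populations overlapped, with differences of -0.01 ± 0.30 and -0.04 ± 0.31. The arrays of the other 5 members did not overlap, 4 with CD4T above and Gimap5 with CD8T above. Of all genes 24.2% and 22.5% were separate in these directions, so such separation was frequent.

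NKT cells were also set against T cells. On the kept probe sets NKT had the highest mean for 6 of 7 members. Even so, 0 of 7 were called and 0 of 7 had an unadjusted p under 0.05. Of all genes 3.36% were called, 1.97% higher and 1.39% lower. The largest differences were those of Gimap7 (0.49 ± 0.31), Gimap5 (0.39 ± 0.23) and Gimap3 (0.34 ± 0.26), and that of Gimap9 was 0.00 ± 0.21. For Gimap4, Gimap5, Gimap6 and Gimap8 both NKT arrays lay above both arrays of each of the other 9 populations, as did 2.01% of all genes tested. The second probe sets did not all bear this out. That of Gimap6 had its highest mean in CD4T (397 and 953), overlapping NKT (590 and 455). That of Gimap4 overlapped between NKT (4510 and 3418) and CD4T (3456 and 2583). That of Gimap7 had NKT (998 and 678) above all other arrays. The upper 95% bound of the NKT minus T difference was 1.13 for Gimap7, 0.87 for Gimap5 and 0.74 for Gimap4. A difference of 1 thus lay within the interval of Gimap7.

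NK cells had less Gimap signal than T or NKT cells. Against T, the fall was called for Gimap3 (-1.37 ± 0.26, limma adjusted p 0.00053), Gimap9 (-1.35 ± 0.21, adjusted p 5.9e-05), Gimap6 (-1.34 ± 0.26), Gimap7 (-1.22 ± 0.31) and Gimap8 (-1.05 ± 0.26). Gimap4, at 3881 ± 14.9 in NK, differed by -0.69 ± 0.20 and Gimap5 by -0.97 ± 0.23, both with an adjusted p under 0.05 but short of a difference of 1. That makes 5 of 7 lower and 0 higher, where 14.6% of all genes were called, 5.57% lower and 9.02% higher, with a median of -1.22 for the members and -0.12 for all genes. Against NKT, 7 of 7 were called lower, from -1.72 ± 0.30 for Gimap3 to -1.01 ± 0.23 for Gimap4. Of all genes 11.3% were called there, 4.47% lower and 6.86% higher. The NK arrays lay below those of T in 7 of 7 members (23.4% of all genes) and below those of NKT in 7 of 7 (36.4%). The comparisons of B, NK and NKT with T share the T arrays, and both NK comparisons share the NK arrays, so they are not independent of each other.

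Set side by side, the members did not keep one order between B and NK. Gimap4 was at 1385 and 1861 in B and 3871 and 3892 in NK, and Gimap3 and Gimap7 were likewise lower in B. For Gimap7 this rests on 1 probe set, since the second overlapped (230 and 105 in B, 198 and 147 in NK). The second probe sets of Gimap4 and Gimap6 kept the order of the kept ones, without overlap. Gimap5, Gimap6, Gimap8 and Gimap9 had their lowest lymphoid mean in NK, with arrays that did not overlap those of B. Both B arrays lay above both NK arrays in 32.5% of all genes, and the reverse held in 27.9%. The gap between both populations was not tested.

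The NK arrays stood apart in their markers, as described above. The monocyte and macrophage sum was 21462 and 18484 in NK, 1112 and 2664 in NKT and at most 1171 in the CD4T and CD8T arrays. The neutrophil sum was 18217 and 14008 in NK, 491 and 2456 in NKT and at most 374 in CD4T and CD8T. Their part in the lower Gimap values of NK was not tested. With treat, 0 members were called in either NK comparison, where 5.21% of all genes were called against T and 3.43% against NKT. The call of Gimap4 against NKT ended under quantile normalization (-0.65) and array median centring (-0.93) and without NKT replicate 1 (-0.97), and against T that of Gimap8 ended without NK replicate 1 (adjusted p 0.081) or CD4T replicate 1 (-0.99) and under quantile normalization (-0.997), and that of Gimap7 without NK replicate 2 (adjusted p 0.059). With a pseudocount lowered to the 5th percentile, Gimap6 was no longer called (adjusted p 0.051 against T and 0.068 against NKT).

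**Figure D3:**
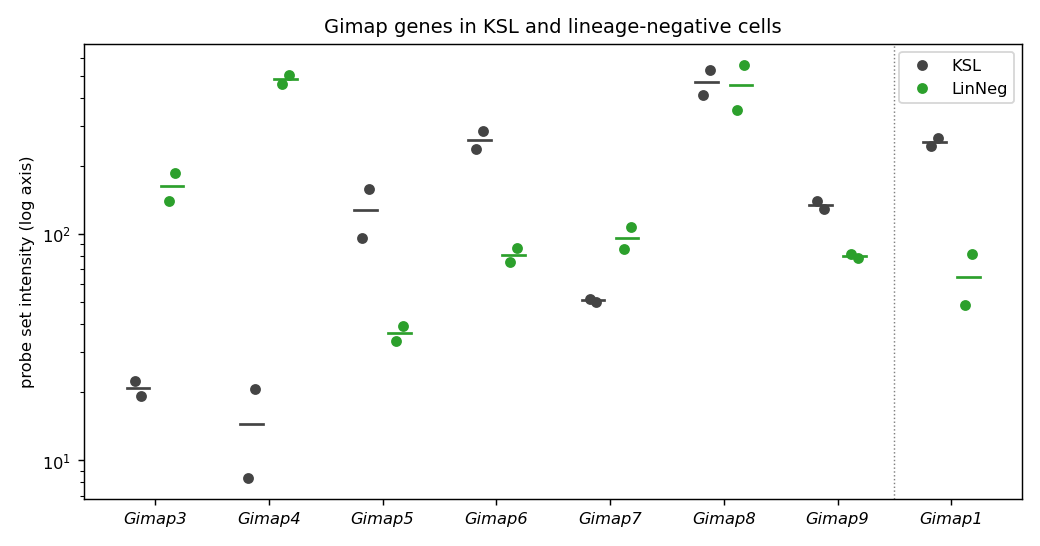
Probe set intensity (log axis) of the 7 Gimap genes and the neighbour Gimap1 in KSL and LinNeg, with points for the 2 arrays and a line at their mean. Gimap3, Gimap4 and Gimap7 are higher in LinNeg, Gimap5, Gimap6, Gimap9 and Gimap1 in KSL, and Gimap8 overlaps.

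LinNeg was compared with KSL, the stem-enriched fraction of lineage-negative cells. The members went in opposite directions. Gimap3 rose from 20.9 ± 2.23 in KSL to 163 ± 33.6 in LinNeg (n = 2 each, log2 difference 2.60 ± 0.30, limma adjusted p 2.9e-05). Gimap5 fell from 127 ± 44.0 to 36.5 ± 4.02 (-1.59 ± 0.27, adjusted p 0.00081), and Gimap6 from 260.1 ± 32.7 to 80.9 ± 8.21 (-1.60 ± 0.30, adjusted p 0.0020). For Gimap4, whose difference in this comparison was known before the family was chosen, the difference of 4.58 ± 0.23 is given as a description. Its size depends on the pseudocount, since its KSL arrays were near 6.75.

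The remaining members were not called. Gimap7 was at 96.4 in LinNeg and 50.9 in KSL (0.83 ± 0.35, adjusted p 0.17), Gimap9 at 79.8 and 134 (-0.70 ± 0.24, adjusted p 0.079), and Gimap8 at 455 and 470.4 (-0.08 ± 0.31). In 6 of 7 members the arrays of both fractions did not overlap, 3 with LinNeg above (Gimap4 among them) and 3 with KSL above. Over all genes tested, 25.6% had both LinNeg arrays above both KSL arrays and 28.1% the reverse. With Gimap4 left aside as a description, Gimap3 was called higher in LinNeg and Gimap5 and Gimap6 lower. Of all genes 5.53% were called, 2.45% higher and 3.07% lower. The median of the members, -0.08, says little here because the members lie on both sides of 0.

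The second probe sets bear on this comparison. That of Gimap4 gave a difference of 4.21, near the kept one. That of Gimap6 gave -0.65 with overlapping arrays (181 and 68.1 in KSL, 88.4 and 53.3 in LinNeg), and the mean of both Gimap6 probe sets gave -1.13 (adjusted p 0.046). The second Gimap7 probe set read 5.26 and 22.3 in KSL and 3.26 and 21.7 in LinNeg, close to the dim end of the scale, so the weak Gimap7 signal in both fractions rests on 1 probe set. With treat, Gimap3 was called, as were 0.583% of all genes, and the lower pseudocount gave Gimap6 an adjusted p of 0.083. Gimap4 also passed treat, but its difference was known beforehand and is not counted as a result.

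Lymphocyte markers differed between the same arrays. Of 11 T cell genes 5 were called higher in LinNeg and 0 lower, with sums of 572 and 769 in LinNeg and 298 and 273 in KSL. Cd3d, part of the CD3 complex of T cells, was at 58.6 and 79.2 in LinNeg and 3.48 and 1.00 in KSL. Of 11 NK cell genes 5 were higher and 0 lower, with sums of 1191 and 1707 in LinNeg and 732 and 609 in KSL. Plasma cell genes were higher in 3 of 8, with sums of 11351 and 10798 in LinNeg and 1635 and 1890 in KSL, while 0 of 11 B cell genes were called (263 and 284 against 291 and 328). Stem and early progenitor genes summed to 7494 and 10213 in KSL and 2410.5 and 2934 in LinNeg. The part of lymphocytes in the LinNeg values of Gimap3 and Gimap4 was not tested. Gimap5 and Gimap6 were higher in KSL, where the T, NK and plasma cell sums were lower and the B cell sum slightly higher. The part of lymphocytes in these values was not tested either.

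In erythroblasts and myeloid cells the family was dim. Against LinNeg, 7 of 7 members fell in Erythroblast, where 43.9% of all genes were called, 29.3% lower and 14.6% higher, so falls were frequent in this comparison. The differences ran from -2.16 ± 0.27 for Gimap5 to -4.39 ± 0.31 for Gimap8, which went from 455 ± 147 to 15.6 ± 9.23 (limma adjusted p 5.1e-10). Since the Erythroblast values lie near or under the pseudocount, these sizes and their order depend on it: that of Gimap5 was -3.19 with a pseudocount at the 5th percentile and -1.20 at the median, and in the former the smallest fall was that of Gimap7 (-2.93). The members' median was -2.96 and that of all genes -0.19, and treat called 7 of 7 members and 23.8% of all genes. The T cell sum was 206 and 213 in Erythroblast against 572 and 769 in LinNeg, the NK cell sum 323 and 175 against 1191 and 1707, and the plasma cell sum 352 and 380.2 against 11351 and 10798. The mean 3′ to 5′ ratio of Gapdh was 5.98 in Erythroblast and 3.99 in LinNeg. The part of these in the falls of the Gimap genes was not tested. This comparison shares the LinNeg arrays with the one before. Between Monocyte and Neutrophil 0 of 7 were called, with 0 of 7 at an unadjusted p under 0.05, where 12.2% of all genes were called, 9.56% higher and 2.62% lower. The family was picked for standing far lower in these cells, and most of its values there lie near or under the median of all values. This left little room for a call, so nothing is read from the count of 0. The arrays of both populations overlapped in all 7 members. Gimap9, for one, was at 60.6 ± 20.9 in Neutrophil and 45.4 in Monocyte.

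Gimap1, the other gene of the cluster with a probe set, is needed for the development and upkeep of mature B and T cells. It read 894 and 914 in CD4T, 602 and 743 in B, 612 and 652 in NKT, 503 and 554 in CD8T, and 223 and 247 in NK. KSL, at 244 and 266, was as high as NK, so not all its lymphoid arrays were above the others. It fell from KSL to LinNeg by 1.91 on the log2 scale (limma adjusted p 0.00079). Of the genes on either side of it, Gimap5 went in the same direction and Gimap7 in the other (0.83 ± 0.35, not called). Its difference between B and T was -0.05 ± 0.27, and was not tested against those of the members.

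**Figure D4:**
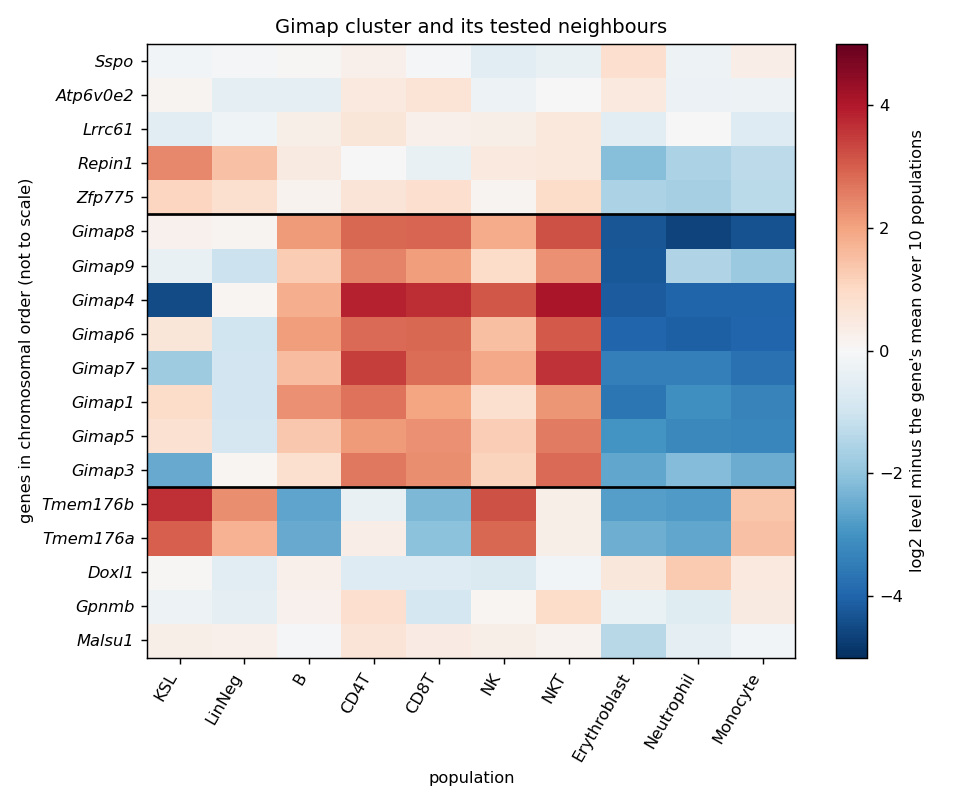
Mean log2 level of each gene in each population minus the gene's mean over the 10 populations, for the Gimap cluster (between the black lines) and the 5 nearest tested protein-coding genes on each side, in chromosomal order and not to scale. The 8 Gimap rows share high lymphoid values, and among the rows outside the lines Lrrc61 follows them most closely, over a small range.

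The genes beside the cluster followed the members less closely than Gimap1 did. Over the 10 population means, the Pearson r with the mean of the members was 0.948 for Gimap1 and ran from -0.773 to 0.880 in the 10 tested neighbours. The highest was that of Lrrc61, which also had all lymphoid arrays above the others but ranged only from 46.5 in Monocyte to 116 in CD4T. Zfp775, the nearest tested gene before Gimap8, had r of 0.803 but was at 45.4 or less in every population mean. Of the tested genes past Gimap3, Malsu1 had the highest r, 0.737. Tmem176b and Tmem176a, the nearest tested genes past Gimap3 and encoding membrane proteins, were highest in KSL, at 3120 ± 181 and 571 ± 15.3, and had r of 0.07 and 0.10. Tmem176b stood at 2360 in NK, 310 in NKT, 186 in CD4T, 46.9 in CD8T and 33.9 in B, against a lowest mean of 28.3 in Neutrophil.

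Some genes away from the cluster had a higher r with the members than those neighbours. Among 7687 tested genes that are not members (Gimap1 included) and ranged over at least 2 on the log2 scale, the highest r with the mean of the members, over 10 population means, were those of Ablim1 (0.982), Traf3ip2 (0.979), Ppp3cc (0.977), Galnt12 (0.976) and Gpr174 (0.975). Ablim1 encodes an actin-binding protein, Ppp3cc a catalytic subunit of calcineurin and Gpr174 a receptor of lymphocytes. For Gimap3, Gimap4 and Gimap7 the single most similar gene was Gpr174, with r of 0.988, 0.992 and 0.983. Gpr174 was at 4.89 in KSL and 73.4 in LinNeg, the direction of those 3 genes. For Gimap5 it was Gimap1 (0.982), for Gimap6 Traf3ip2 (0.988), for Gimap8 Jakmip1 (0.987) and for Gimap9 Pptc7 (0.987), each of which had a higher mean in KSL than in LinNeg. All of these were chosen as the best of many, so the values describe likeness and carry no test.

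Genes whose products are tied to Gimap proteins were read from a list of 12, of which 11 were tested. Between B and T, 2 of 11 were lower in B and 0 higher: Bcl2, the survival factor to which several Gimap proteins have been linked, at 674 in B and 2831 in T (-1.95 ± 0.38, limma adjusted p 0.00086), and Bcl2l11, its death-promoting counterpart, at 425 and 1876. Bcl2 was the only gene of this list whose lymphoid arrays all lay above the others. It was lower in NK than in T (-1.80 ± 0.38) and the 1 gene of the list called there, as it was against NKT (-2.09 ± 0.44). In LinNeg minus KSL 1 of 11 was lower, the Atg8-type gene Gabarapl1 (-1.07 ± 0.25). In Erythroblast minus LinNeg 4 of 11 were higher and 2 lower, where 14.6% of all genes were higher and 29.3% lower. Among the higher was Gabarapl2, the autophagy partner of Gimap6, at 1592 in Erythroblast and 224 in LinNeg, a comparison in which Gimap6 fell. No gene of the list was called between CD4T and CD8T or between NKT and T, and between Monocyte and Neutrophil 1 was, Bcl2l11. Of all genes 7.08% were lower in B minus T, 5.57% in NK minus T, 4.47% in NK minus NKT and 3.07% in LinNeg minus KSL.

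Of 9 tested genes of lymphocyte homeostasis and homing, 5 were lower in B than in T, 6 lower in NK than in T, 5 lower in NK than in NKT and 3 lower in NKT than in T, with 0 higher in any of these. Of all genes 7.08%, 5.57%, 4.47% and 1.39% were called lower in these comparisons, in the same order. Il7r, the receptor for the survival cytokine interleukin 7, had a mean of 6127 in T, 387 in NK and 41.9 in B (-6.99 ± 0.35 in B minus T). Ccr7 and Lef1, a homing receptor and a transcription factor of naive T cells, were lower in NKT than in T (-3.47 ± 0.38 and -1.26 ± 0.29), where no Gimap gene was. Between LinNeg and KSL 2 of 9 were higher (Il7r and Ccr7) and 1 lower (Satb1), where 2.45% of all genes were higher and 3.07% lower. In Erythroblast minus LinNeg 8 of 9 were lower, where 29.3% of all genes were, and 0 were called in the other comparisons.

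Among 10 lymphoid transcription factor genes, B minus T gave 3 higher and 2 lower, NK minus T 3 lower, NK minus NKT 2 lower and CD4T minus CD8T 2 higher. Of all genes 5.91% were higher and 7.08% lower in B minus T. The shares lower were 5.57% in NK minus T and 4.47% in NK minus NKT, and 2.13% were higher in CD4T minus CD8T. LinNeg minus KSL gave 2 higher and 2 lower: Ikzf3 and Ets1 were higher in LinNeg (2.82 ± 0.33 and 1.11 ± 0.25) and Nfatc2 and Foxp1 higher in KSL (-1.58 ± 0.27 and -1.11 ± 0.23). Erythroblast minus LinNeg gave 8 lower, where 29.3% of all genes were, and the other 2 comparisons 0. In LinNeg minus KSL 2.45% of all genes were higher and 3.07% lower.

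The interferon-inducible and other immune GTPases, a separate group of GTP-binding proteins, were read beside the Gimap genes. Of 12 tested, 7 were lower in B than in T with a median of -1.62, 4 lower and 1 higher in NK than in T, and 2 lower in NK than in NKT. Of all genes 7.08% were lower in B minus T and 4.47% in NK minus NKT. In NK minus T 5.57% were lower and 9.02% higher. In this list 0 of 12 had all lymphoid arrays above the others, which says nothing about the Gimap genes, since those were picked for height in lymphoid cells. Irgm1 stood at 430.5 in Erythroblast and 427 in CD4T, and Igtp and Irgm2 were higher in Erythroblast than in LinNeg (1.12 ± 0.18 and 1.41 ± 0.26), a comparison with 7 lower and 2 higher. Of all genes 29.3% were lower there and 14.6% higher. In LinNeg minus KSL 4 of 12 were lower (Irgm2, Iigp1, Gbp2, Gbp6) and 0 higher, where 3.07% of all genes were lower and 2.45% higher. Gbp6, a guanylate-binding protein, was closest to the Gimap mean in this list, with r of 0.960. In CD4T minus CD8T 1 was higher, Iigp1 (2.05 ± 0.38), in NKT minus T 1 lower, Rhoh, and in Monocyte minus Neutrophil 2 higher. Of all genes 2.13%, 1.39% and 9.56% were called in these directions.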

How the data were processed

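RNA of 10 sorted populations was measured on Affymetrix Mouse Genome 430 2.0 arrays, 20 in all. Per the labels' protocols, RNA was extracted with ISOGEN and amplified and labelled from the equivalent of 3000 cells with a kit that works from the 3′ end. The authors deposited linear probe set intensities, from 0.0251 to 19431. How probes were summarised and scaled is not given in the sources used here, and the mean without the lowest and highest 2% was 100 in each array. The ratio of 3′ to 5′ control signal for Gapdh ran from 2.36 to 6.10, and its population mean from 3.60 to 5.32 in lymphoid and 2.42 to 3.22 in myeloid cells.

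The deposited scaling was kept and log2(intensity + 6.75) computed. Probe sets without exactly 1 symbol (932 with several, 9160 with none) and 64 controls were left out, and symbols were checked by Entrez number against RefSeq on GRCm38.p6, which changed 0. Genes whose highest population mean was over 4.89, the overall median of the log2 values, were tested with limma 3.58.1 (R 4.3.3), with 1 factor of 10 levels and a mean-variance trend, and p-values were adjusted over 14063 genes. The steps were tested on simulated data. Only 2 arrays per population limit the precision.

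The members, the comparisons and the gene lists were chosen with earlier results of these data known. Genes named are the members, the 5 most similar genes to their mean and the most similar to each, the 5 nearest tested genes on each side, and members of the lists (partners and effectors, lymphocyte homeostasis and homing, lymphoid transcription factors, other immune GTPases, cell type markers). Groups and replicate numbers came from sample titles.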

Additional observations from a re-analysis of the deposited data

How the results depend on the processing

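The count of members called stayed within 1.5 times its value in all 8 comparisons with a pseudocount at the 5th percentile or at the median, no filter or a filter at the 75th percentile, quantile normalization, array median centring, the mean of all probe sets of a gene, no variance trend and only the populations compared. It moved with treat, from 4 to 1 in B minus T, from 5 to 0 in NK minus T, from 7 to 0 in NK minus NKT and from 4 to 2 in LinNeg minus KSL. Over all genes treat called 743 in place of 1827, 733 in place of 2053, 482 in place of 1594 and 82 in place of 777 in these. It called 55 in place of 451 in CD4T minus CD8T, 60 in place of 473 in NKT minus T, 211 in place of 1712 in Monocyte minus Neutrophil and 3340 in place of 6168 in Erythroblast minus LinNeg. Leaving out each array of a comparison in turn gave 3 to 4 members in B minus T, 4 to 5 in NK minus T, 6 to 7 in NK minus NKT, 4 in LinNeg minus KSL, 7 in Erythroblast minus LinNeg and 0 in the other 3. A fit without the NK population, chosen after seeing the data, left the counts of the 6 comparisons without NK as they were. No single member's called difference changed sign under any of these settings. Every LinNeg minus KSL count in this section includes Gimap4, whose difference there was known before the family was chosen.

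The lymphoid arrays lay above the others in 7 of 7 members under quantile normalization, array median centring and the mean of probe sets. Quantile normalization moved the median of all genes in Erythroblast minus LinNeg by 0.18, and array median centring moved the share of lower calls from 33.5% to 43.9% in CD4T minus CD8T and from 21.5% to 32.1% in Monocyte minus Neutrophil. With the replicate block, the counts were 4, 0, 5, 0, 7, 0, 4 and 7 in the order B minus T, CD4T minus CD8T, NK minus T, NKT minus T, NK minus NKT, Monocyte minus Neutrophil, LinNeg minus KSL and Erythroblast minus LinNeg, the same as without it. No strong shift shared by arrays of the same replicate number was seen, since the correlation of replicate differences between populations was over 0.1 in 1 of 45 pairs. Whether replicates of the same number were matched is not stated. Most values of the members in Erythroblast, Neutrophil and Monocyte lie near or under the median of all values, where the size of a difference depends on the pseudocount.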
